A study of Mus musculus with 4 samples.

Results

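The thrombospondins, tenascins and periostin are secreted glycoproteins of the extracellular matrix, and 10 of the 24421 gene symbols in the count table encode them. They are the thrombospondins Thbs1, Thbs2, Thbs3, Thbs4 and Comp (also called thrombospondin 5), the tenascins Tnc, Tnn, Tnr and Tnxb, and the single gene Postn for periostin. The genes were listed by name, and the group was selected on the comparison of DPPIV+ with DPPIV- fibro-adipogenic progenitors (FAPs), in which Tnn stood among the largest decreases. Their values in that comparison are therefore given as a description, without p-values, and the number of members called is set beside the share of all genes.

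The study asked which stromal cells of the adult mouse muscle form a niche for resident macrophages. FAPs, the mesenchymal stromal cells of the muscle, were sorted from wild-type mice as live (propidium iodide-negative) CD31- CD45- Sca1+ cells and divided by surface DPPIV, the peptidase encoded by Dpp4. Both cell types came from the same 2 mice, called mouse 1 and mouse 2, so that each group held 2 libraries of bulk RNA and n = 2 mice. All 4 libraries came from animals given a CSF1R inhibitor (PLX73086 in the chow, per the study's methods) for 3 weeks and then a regular diet for 3 days. CSF1R inhibition depletes muscle macrophages, and an untreated group was not analysed here. The labels give no age or sex for these mice, and they name the tibialis anterior as the source although the protocol describes the muscle of both hindlimbs.

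These proteins are called matricellular because most of them modulate how cells meet the matrix rather than carry load themselves. Thrombospondins form trimers (Thbs1 and Thbs2) or pentamers (Thbs3, Thbs4 and Comp). They bind calcium, collagens and cell surface receptors, such as CD36 and CD47 in the case of Thbs1. Tenascins are large multimeric proteins built of EGF-like and fibronectin type III repeats, and Tnc and Postn are well known for their rise in injured and remodelling tissue. In muscle and tendon, Thbs4, Comp, Tnc and Tnxb are constituents of the connective tissue around fibres and at the myotendinous junction.

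Library totals lay between 18240110 and 20879405 reads counted on genes, and 3 reads, taken as the floor of detection, corresponded to 0.143 to 0.167 CPM (counts scaled to a common library size). All CPM values are scaled by edgeR's TMM factors, and a gene was tested when it had at least 2 CPM in at least 2 libraries, which left 11588 genes. Dpp4 itself was 89.8 CPM in mouse 1 and 39.7 in mouse 2 in DPPIV- FAPs, against 728 and 575 in DPPIV+ FAPs. The FAP markers Pdgfra, Ly6a, Cd34 and Pdgfrb were between 352 and 2952 CPM in all 4 libraries, with Ly6a and Cd34 higher and Pdgfra and Pdgfrb lower in DPPIV+ FAPs. The members together held between 0.879% and 1.13% of all reads. Of the 10 members, 9 passed the filter on low values and Tnr did not.

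The promoters of 4 members are printed here because these genes had the largest differences between the cell types in either direction. They run from 250 bases before to 50 bases after the annotated start on the gene's own strand, from RefSeq (GRCm38.p6), which held a promoter for 8 of the 10 members (Thbs1 and Comp were not matched). Capitals mark the motif letters that were found. Tnn lies at chr1:160153526-160153825 (minus strand), Tnxb at chr17:34670285-34670584 (plus strand), Postn at chr3:54360857-54361156 (plus strand) and Tnc at chr4:64046966-64047265 (minus strand).
Tnn: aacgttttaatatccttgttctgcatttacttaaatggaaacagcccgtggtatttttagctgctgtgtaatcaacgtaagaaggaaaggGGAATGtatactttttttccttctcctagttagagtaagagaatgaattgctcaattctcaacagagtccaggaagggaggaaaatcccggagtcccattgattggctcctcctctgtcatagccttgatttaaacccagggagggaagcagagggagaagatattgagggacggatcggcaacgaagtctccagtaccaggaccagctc
Tnxb: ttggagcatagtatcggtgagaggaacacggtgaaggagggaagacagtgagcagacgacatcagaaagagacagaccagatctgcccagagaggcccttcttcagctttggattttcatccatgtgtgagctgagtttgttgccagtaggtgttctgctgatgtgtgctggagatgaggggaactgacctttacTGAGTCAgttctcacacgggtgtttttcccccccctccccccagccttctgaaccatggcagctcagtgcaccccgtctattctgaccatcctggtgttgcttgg
Postn: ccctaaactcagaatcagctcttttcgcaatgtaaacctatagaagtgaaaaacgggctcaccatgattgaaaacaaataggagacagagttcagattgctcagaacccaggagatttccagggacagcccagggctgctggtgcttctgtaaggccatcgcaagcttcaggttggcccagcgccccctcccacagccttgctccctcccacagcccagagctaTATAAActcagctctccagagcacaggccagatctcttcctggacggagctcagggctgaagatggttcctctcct
Tnc: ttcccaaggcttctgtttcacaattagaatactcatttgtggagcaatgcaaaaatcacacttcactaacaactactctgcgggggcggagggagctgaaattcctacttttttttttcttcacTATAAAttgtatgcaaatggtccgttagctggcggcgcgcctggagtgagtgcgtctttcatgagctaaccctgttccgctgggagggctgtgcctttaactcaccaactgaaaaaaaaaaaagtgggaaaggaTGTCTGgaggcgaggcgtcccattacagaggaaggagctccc
The capitals in Tnn are GGAATG, a TEAD-type motif, beginning at position -160 counted from the annotated start. Those in Tnxb are TGANTCA, the AP-1 motif, which reads as itself on both strands and begins at position -55. Postn has TATAAA at position -26. Tnc has TATAAA at position -126 and CAGACA, a SMAD-type motif, on the other strand at position 8 after the start. Tnc and Postn have 2 annotated starts each, of which the one nearest to the gene's GENCODE start was taken.

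Both strands of each promoter were searched for these motifs and for the CArG box of SRF. Over 32851 mouse promoters of the same length, 13.6% held TATAAA, 7.81% TGANTCA, 14.7% GGAATG and 1.63% a CArG box, and 6913 of them held CAGACA. Among the 8 members with a promoter the counts were 3 for TATAAA (Thbs2, Tnc and Postn), 1 for TGANTCA (Tnxb), 2 for GGAATG (Thbs4 and Tnn), 3 for CAGACA (Thbs2, Thbs4 and Tnc) and 0 for the CArG box. The GGAATG matches in Thbs4 share 1 base on the minus strand, and no other matches overlapped. A match is a string of letters and says nothing of binding.

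Among the 9 members tested, Tnn had the largest difference between the cell types. Tnn (tenascin-N, also called tenascin-W, a tenascin of periosteum, tendon and stem cell niches; ENSMUSG00000026725.17, chr1:160085029-160153580) had 110 reads in mouse 1 and 121 in mouse 2 in DPPIV- FAPs, and 4 and 5 reads in DPPIV+ FAPs. This corresponded to 5.26 and 6.19 CPM against 0.222 and 0.274 CPM. Both DPPIV+ libraries lay far below both DPPIV- libraries, and even the DPPIV- level was low, close to the filter of 2 CPM. Tnn passed that filter only through its DPPIV- libraries. The log2 ratio of DPPIV+ over DPPIV- was -4.52 in mouse 1 and -4.46 in mouse 2, and the fitted log2 fold change was -4.49 (SE 0.37), the 5th lowest of the genes tested. Since the libraries are bulk RNA, fewer cells that express a gene and less RNA of that gene per cell cannot be told apart, here and in every difference below.

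Tnxb (tenascin-X, which binds fibrillar collagen and whose loss causes a form of Ehlers-Danlos syndrome; ENSMUSG00000033327.16, chr17:34670535-34719815) moved the other way. It had 3682 CPM in mouse 1 and 3621 CPM in mouse 2 in DPPIV- FAPs, and 5473 and 5663 CPM in DPPIV+ FAPs. The groups did not overlap, and the mice differed little within either cell type. The mean was 3652 ± 43.1 CPM in DPPIV- and 5568 ± 134 CPM in DPPIV+ FAPs (SD, n = 2), with log2 ratios of 0.57 and 0.65 and a fitted value of 0.61 (SE 0.08). Tnxb alone gave 42.0% of the members' reads in mouse 1 and 33.6% in mouse 2 in DPPIV- FAPs, and 56.5% and 49.2% in DPPIV+ FAPs.

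Tnc (tenascin-C, an anti-adhesive tenascin of developing, loaded and injured tissue; ENSMUSG00000028364.15, chr4:63959785-64047015) had 222 CPM in mouse 1 and 465 CPM in mouse 2 in DPPIV- FAPs, and 152 and 291 CPM in DPPIV+ FAPs. Within each mouse the DPPIV+ library was the lower one, yet the groups overlapped because the DPPIV+ FAPs of mouse 2 stood above the DPPIV- FAPs of mouse 1. The log2 ratios were -0.54 and -0.68, and the fitted value was -0.61 (SE 0.07). Tnr (tenascin-R, a tenascin of perineuronal nets in the brain; ENSMUSG00000015829.13, chr1:159523769-159931729) had 0 reads in mouse 1 and 4 in mouse 2 in DPPIV- FAPs, and 1 and 3 reads in DPPIV+ FAPs. The 0 reads in DPPIV- FAPs of mouse 1 allow a level of up to 0.143 CPM, so that a difference in Tnr was not detectable at this depth. Tnr and Tnn lie near each other on chromosome 1, with 153299 bases and 1 other protein-coding gene between them.

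Postn (periostin, a matricellular protein that binds integrins and collagen and assists collagen crosslinking; ENSMUSG00000027750.16, chr3:54361109-54391037) had 1289 CPM in mouse 1 and 2227 CPM in mouse 2 in DPPIV- FAPs. In DPPIV+ FAPs it had 857 and 1066 CPM. Both DPPIV+ libraries lay below both DPPIV- libraries, and the DPPIV- FAPs of mouse 2 stood apart at the top. The mean was 1758 ± 663 CPM in DPPIV- and 961 ± 148 CPM in DPPIV+ FAPs (SD, n = 2). The log2 ratios were -0.59 in mouse 1 and -1.06 in mouse 2, with a fitted value of -0.83 (SE 0.07). Both ratios lay outside the fitted confidence interval of -0.97 to -0.68, so the SE did not reflect the gap between the mice. For Postn that gap was at percentile 91.1 of the genes tested.

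**Figure D1:**
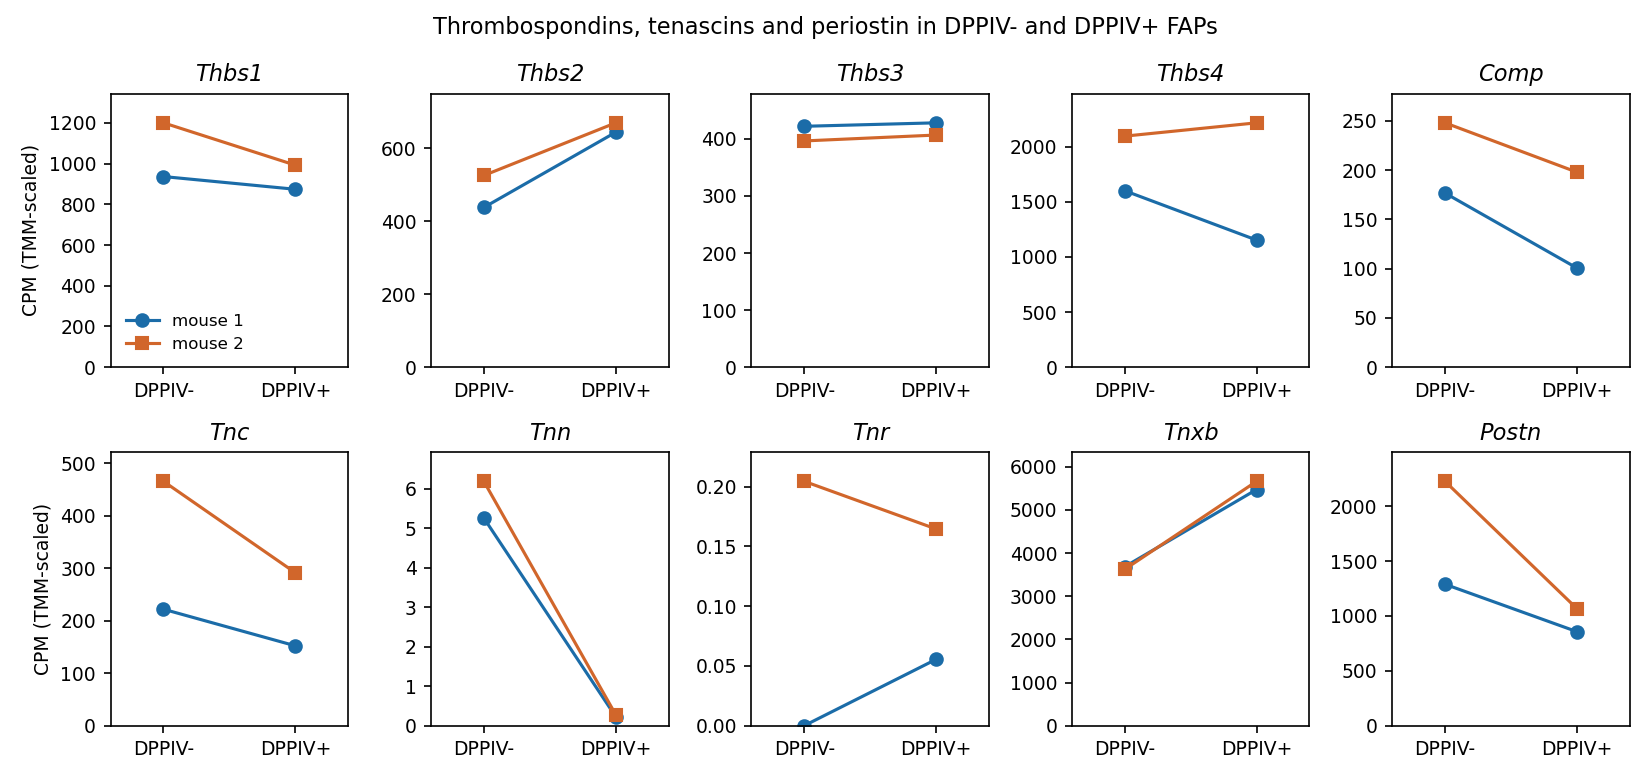
CPM (TMM-scaled, linear axes from 0) of each of the 10 genes in DPPIV- and DPPIV+ FAPs, with a line joining the libraries of mouse 1 (blue circles) and of mouse 2 (orange squares). The lines of Tnn and Postn fall and those of Thbs2 and Tnxb rise without overlap between the cell types, those of Thbs4 diverge, and Tnr stays at or near the floor of 3 reads.

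Among the thrombospondins, the trimeric pair parted. Thbs2 (an inhibitor of angiogenesis that also affects collagen fibril assembly; ENSMUSG00000023885.9, chr17:14665500-14694235) had 438 CPM in mouse 1 and 526 CPM in mouse 2 in DPPIV- FAPs, and 644 and 670 CPM in DPPIV+ FAPs. The groups did not overlap, and the mean was 482 ± 62.0 CPM in DPPIV- and 657 ± 18.2 CPM in DPPIV+ FAPs (SD, n = 2). The log2 ratios were 0.56 and 0.35 and the fitted value was 0.45 (SE 0.07). Thbs1 (an activator of latent TGF-beta and a ligand of CD36 and CD47; ENSMUSG00000040152.8, chr2:118111876-118127133) had 937 CPM in mouse 1 and 1201 CPM in mouse 2 in DPPIV- FAPs, and 874 and 993 CPM in DPPIV+ FAPs. It was slightly lower in the DPPIV+ library of each mouse, but the groups overlapped. The log2 ratios were -0.10 and -0.27 and the fitted value was -0.19 (SE 0.07).

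Of the pentameric members, Thbs4 and Comp differed between the mice and Thbs3 hardly did. Thbs4 (a thrombospondin of tendon and muscle matrix; ENSMUSG00000021702.7, chr13:92751590-92794818) had 1602 CPM in mouse 1 and 2096 CPM in mouse 2 in DPPIV- FAPs, and 1153 and 2217 CPM in DPPIV+ FAPs. The DPPIV+ libraries were thus the lowest and the highest of the 4. The log2 ratio was -0.47 in mouse 1 and 0.08 in mouse 2, so that the sign of the difference depended on the mouse. The fitted value was -0.20 (SE 0.07), and this SE did not reflect the gap of 0.55 between the mice, which was at percentile 93.7 of the genes tested (median 0.14 over all of them).

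Comp (a cartilage and tendon protein that catalyses collagen fibril formation; ENSMUSG00000031849.9, chr8:70373558-70382066) had 177 CPM in mouse 1 and 248 CPM in mouse 2 in DPPIV- FAPs, and 100.6 and 198 CPM in DPPIV+ FAPs. The DPPIV+ library was the lower one in each mouse, and the groups overlapped. The log2 ratios were -0.81 and -0.33, with a fitted value of -0.56 (SE 0.07). Both ratios lay outside the fitted 95% interval of -0.69 to -0.43, so here too the SE did not reflect the gap between the mice. That gap was at percentile 91.6 of the genes tested. Thbs3 (a pentameric thrombospondin of growing bone; ENSMUSG00000028047.11, chr3:89215180-89226837) had 422 CPM in mouse 1 and 396 CPM in mouse 2 in DPPIV- FAPs, and 428 and 407 CPM in DPPIV+ FAPs. Its fitted log2 fold change was 0.029, with a 95% interval from -0.10 to 0.16, and the 4 libraries lay within a narrow range.

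**Figure D2:**
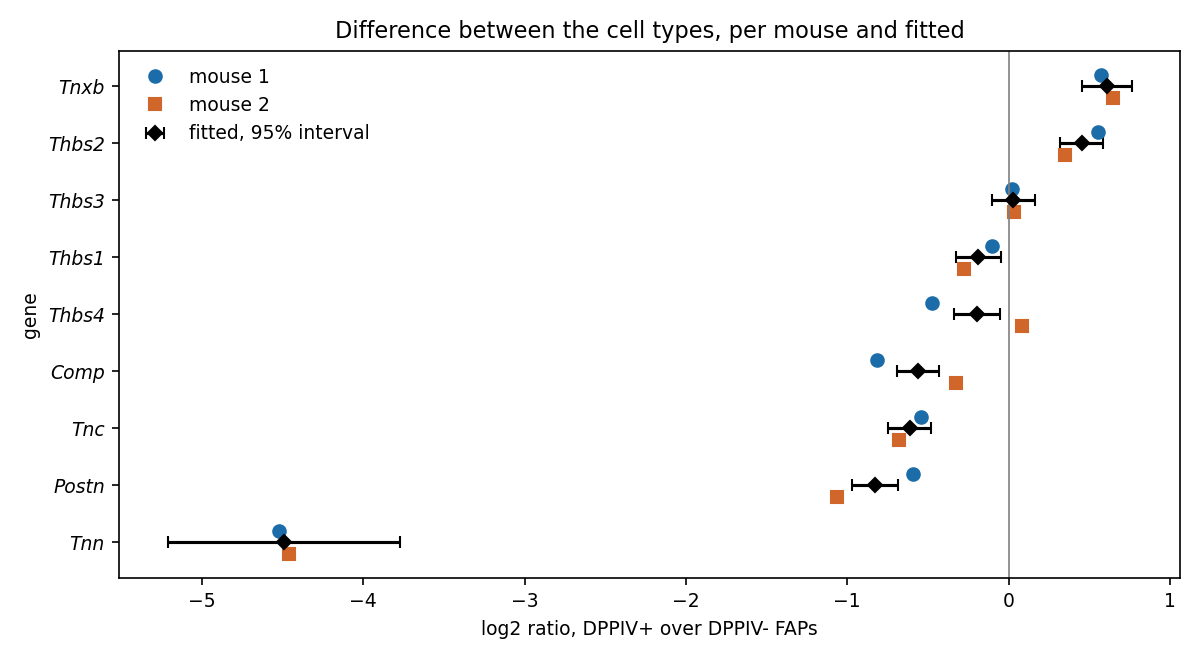
Log2 ratio of DPPIV+ over DPPIV- FAPs for the 9 genes tested, in mouse 1 (blue circles), in mouse 2 (orange squares) and as fitted with mouse as a block (black diamonds with 95% intervals). Tnn lies at -4.49 apart from all others, Postn, Tnc, Comp and Thbs1 are below 0 and Tnxb and Thbs2 above 0 in both mice, and Thbs4 lies on either side of 0.

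Read as families, the thrombospondins summed to 4021 ± 631 CPM in DPPIV- and 3842 ± 908 CPM in DPPIV+ FAPs (SD, n = 2), with log2 ratios of -0.16 and 0.0056. The tenascins summed to 4001 ± 130 CPM in DPPIV- FAPs and had log2 ratios of 0.53 and 0.54, which followed Tnxb. Without Tnxb, the other 9 members summed to 6128 ± 1467 CPM in DPPIV- and 5026 ± 1155 CPM in DPPIV+ FAPs, with log2 ratios of -0.27 and -0.29. The reads of the group thus shifted towards tenascin-X in DPPIV+ FAPs, while the sum over all 10 members had log2 ratios of 0.14 and 0.09. These sums are not divided by gene length, so they do not compare the families with each other.

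At an adjusted p under 0.05 in edgeR's quasi-likelihood test with mouse as a block, 2 of the 9 members tested were higher (Thbs2 and Tnxb) and 6 were lower in DPPIV+ FAPs (Thbs1, Thbs4, Comp, Tnc, Tnn and Postn). Of all genes tested, 15.9% were called higher and 17.2% lower. Because the members were chosen by this comparison, their counts are not evidence of a direction of the group. With DESeq2 the calls were 2 higher and 3 lower (Tnc, Tnn and Postn), against 7.97% and 8.59% of all genes. Without the block on mouse, 2 were called higher and 2 lower (Tnn and Postn). The groups did not overlap, with both DPPIV+ libraries below, for 2 members (28.6% of all genes) and, with both above, for 2 members (27.8% of all genes). The median log2 fold change was -0.20 over the 9 members and -0.0020 over all genes tested.

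The rule that selected the members did not use the comparison of mouse 2 with mouse 1, which was read from the same fit. The members and tests were nevertheless chosen with earlier results of these data known. The comparison sets 1 animal against 1 animal, with 2 libraries each, so it describes these animals. Its adjusted p-values do not measure the spread between animals. edgeR called 5 of 9 members higher in mouse 2 (Thbs1, Thbs4, Comp, Tnc and Postn) and 0 lower, where 4.47% of all genes were called higher and 4.51% lower. Both libraries of mouse 2 stood above both libraries of mouse 1 for 4 members, and this held for 14.5% of all genes. The median over the 9 members was 0.27 on the log2 scale, against -0.0022 over all genes.

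Tnc had the largest difference between the mice, at 1.07 in DPPIV- and 0.94 in DPPIV+ FAPs on the log2 scale. Its fitted value was 1.00 (SE 0.07, adjusted p = 2.46e-45 by edgeR and 1.30e-21 by DESeq2), and it ranked 49th of all genes tested by size. This exceeded its own difference between the cell types of -0.61. Tnc was the member that both tools called.

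Comp was higher in mouse 2 by 0.49 in DPPIV- and 0.98 in DPPIV+ FAPs on the log2 scale, with a fitted value of 0.73 (adjusted p = 3.33e-24 by edgeR and 0.148 by DESeq2). Thbs4 was higher by 0.39 and 0.94, with a fitted value of 0.67 (adjusted p = 6.70e-17 by edgeR and 0.306 by DESeq2). For both genes the gap between the mice was thus wider in DPPIV+ FAPs, though with 1 library per mouse and cell type that could not be tested. Postn went the other way, with 0.79 in DPPIV- and 0.32 in DPPIV+ FAPs and a fitted value of 0.55 (adjusted p = 4.28e-12 by edgeR and 0.540 by DESeq2). Thbs1 differed by 0.36 and 0.18, with a fitted value of 0.27 (adjusted p = 0.00315 by edgeR and 0.162 by DESeq2).

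The remaining members did not pass the test between the mice. The adjusted p by edgeR was 0.139 for Thbs2, 0.716 for Tnn, 0.554 for Thbs3 and 0.961 for Tnxb. Tnxb had a fitted difference between the mice of 0.013.

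Markers of tendon cells also differed between the mice, in the same direction as these members, while between the cell types they were higher in DPPIV+ FAPs, where Thbs1, Comp, Tnc and Postn were lower. All 5 tenocyte markers of a fixed list (Scx, Tnmd, Mkx, Fmod and Kera) were called higher in DPPIV+ FAPs by both edgeR and DESeq2, with a median log2 fold change of 1.69. Mkx was not called without the block on mouse (adjusted p = 0.0647 by edgeR) or without DPPIV- FAPs of mouse 1, and without DPPIV+ FAPs of mouse 2 neither Mkx nor Scx was, which left 3 of the 5. All 5 were also called higher in mouse 2 by edgeR and 2 (Fmod and Kera) by DESeq2, with a median of 0.86. Their summed level was 209 CPM in DPPIV- and 784 CPM in DPPIV+ FAPs of mouse 1, and 314 and 1618 CPM in mouse 2. Fmod made up most of it, and the defining transcription factor Scx was low, between 0.860 and 7.85 CPM. The library with most tenocyte marker RNA, DPPIV+ FAPs of mouse 2, was also the highest in Thbs4, but it was not the highest in Comp, Tnc or Postn. The part of tendon cells in the members' values was not tested.

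**Figure D3:**
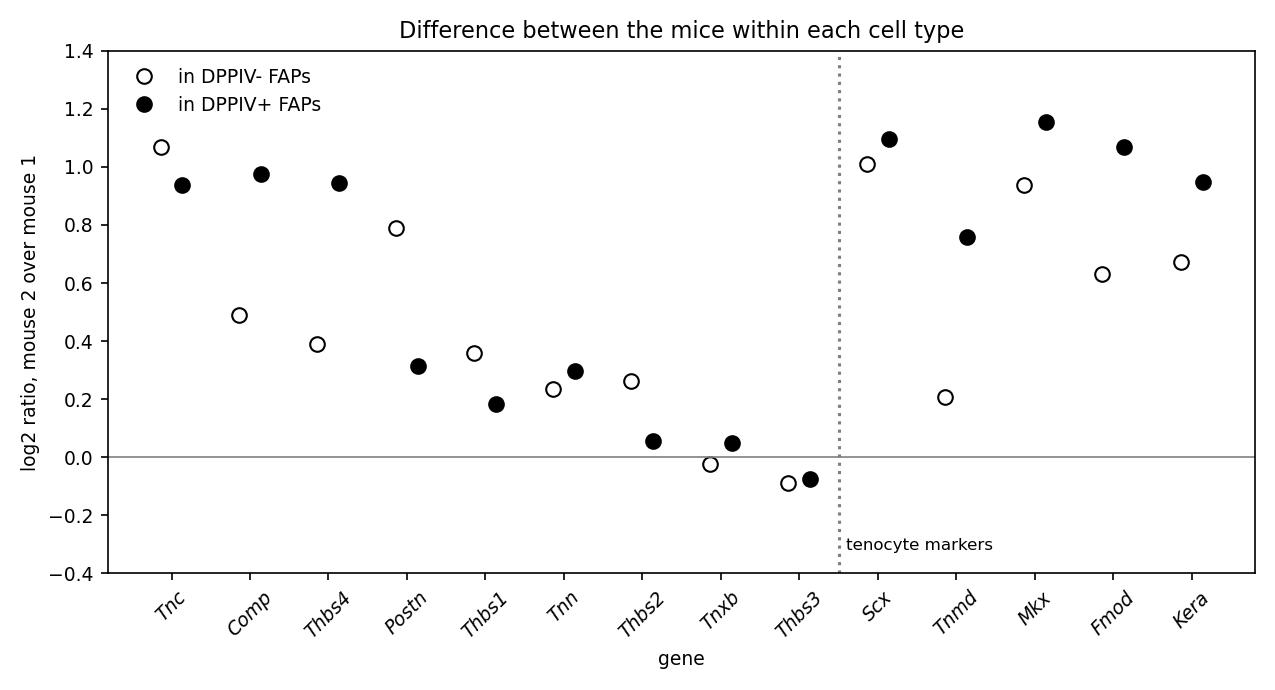
Log2 ratio of mouse 2 over mouse 1 in DPPIV- FAPs (open circles) and in DPPIV+ FAPs (filled circles) for the 9 members tested, ordered by the fitted difference, and for the 5 tenocyte markers to the right of the dotted line. Tnc is near 1 in both cell types, Comp and Thbs4 are higher in DPPIV+ FAPs, Thbs3 and Tnxb are near 0, and all tenocyte markers are above 0.

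Markers of other cells were mostly low. The macrophage list summed to 319 CPM in DPPIV- and 198 CPM in DPPIV+ FAPs of mouse 1 and to 188 and 181 CPM in mouse 2, with 4 of 6 genes lower in DPPIV+ FAPs and 4 lower in mouse 2 by edgeR and none by DESeq2. No macrophage gene was called between the cell types without the block on mouse. The endothelial list had 3 of 5 genes lower and 1 (Tek) higher in DPPIV+ FAPs, and all 5 lower in mouse 2 by edgeR. Its sum was 242 CPM in DPPIV- and 502 CPM in DPPIV+ FAPs of mouse 1, and 182 and 457 CPM in mouse 2. Tek made up most of it, with a mean of 168 CPM in DPPIV- and 447 CPM in DPPIV+ FAPs. DESeq2 called Tek between the cell types and no gene of the list between the mice. Of the mural list, 5 of 6 were lower in DPPIV+ FAPs by edgeR and 3 by DESeq2 or without the block on mouse, with sums of 121 and 123 CPM in DPPIV- and 51.2 and 63.5 CPM in DPPIV+ FAPs.

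The cartilage and bone list, which bears on Tnn and Comp, had 2 genes tested, Sox9 and Runx2, both lower in DPPIV+ FAPs, while Col2a1, Sp7, Bglap and Ibsp were under the filter. Col2a1, the chain of cartilage collagen II, had more reads in DPPIV+ FAPs of both mice (34 against 6 in mouse 1 and 41 against 11 in mouse 2), and 1 gene of the list was called higher when no filter was used. Its sum was 43.4 CPM in DPPIV- and 17.8 CPM in DPPIV+ FAPs of mouse 1, and 44.5 and 19.4 CPM in mouse 2. Of the myofibre list, 3 of 4 genes were tested, 0 were called between the cell types, and 3 were called higher in mouse 2 by edgeR but 0 by DESeq2. For Schwann cells 1 of 3 genes tested and for perineurium 1 of 2 were lower in DPPIV+ FAPs, and the satellite cell list summed to at most 1.38 CPM. The part of any of these cells in the members' values was not tested.

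Per kilobase of exon, which allows genes to be compared with each other, the members spanned a wide range. Thbs4 was the most abundant, with 562 CPM per kilobase in DPPIV- and 512 in DPPIV+ FAPs on average, followed by Tnxb with 299 and 456. Among 23336 genes with a length, Thbs4 ranked 67th in mouse 1 and 42nd in mouse 2 in DPPIV- FAPs, and 101st and 38th in DPPIV+ FAPs. Tnxb ranked 117th and 108th in DPPIV- FAPs and 71st and 64th in DPPIV+ FAPs.

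In DPPIV- FAPs the order of mean level continued with Postn (202 CPM per kilobase), Thbs1 (176), Thbs3 (84.8), Comp (71.6), Thbs2 (68.8), Tnc (44.2), Tnn (0.984) and Tnr at the floor. The ranges of Postn and Thbs1, of Thbs3 and Comp and of Comp and Thbs2 overlapped between the 2 mice. In DPPIV+ FAPs Thbs1 (154) stood above Postn (110.5), and Thbs2 (93.8) moved above Thbs3 (86.5) and Comp (50.3). There the ranges of Thbs4 and Tnxb and of Comp and Tnc overlapped. With the longest transcript in place of the union of exons, Postn had 337 and 184 CPM per kilobase and passed Tnxb to the second place in DPPIV- FAPs and Thbs1 to the third in DPPIV+ FAPs. Tnn stood at the ninth place on every scale tried.

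**Figure D4:**
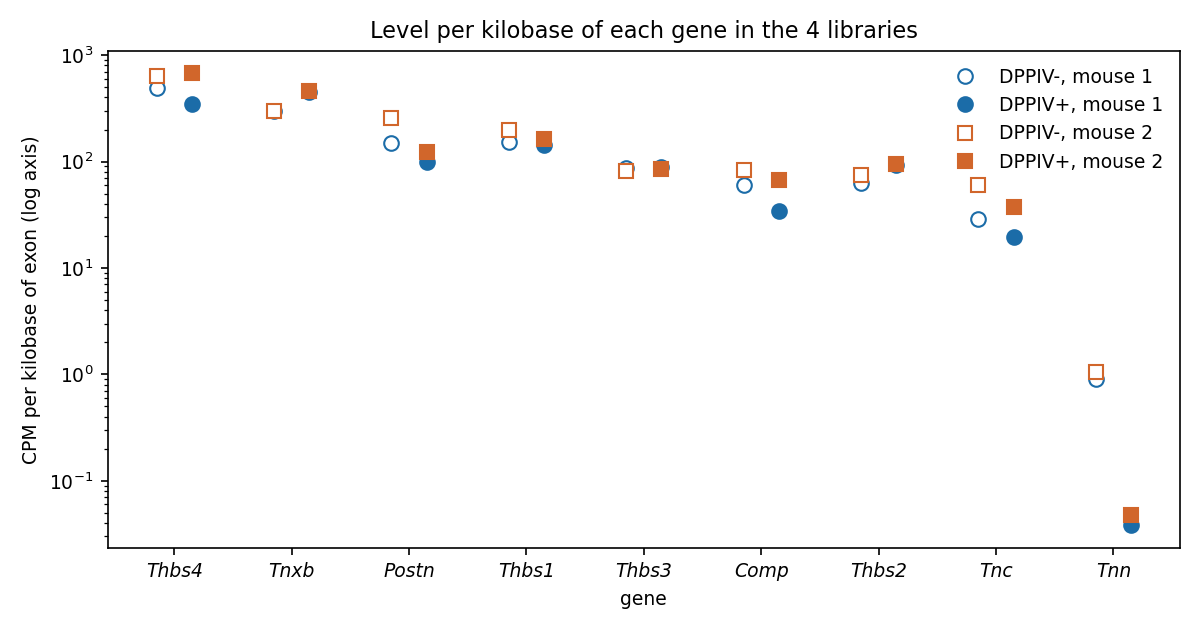
Level per kilobase of exon (log axis) of 9 genes in the 4 libraries, ordered by the mean in DPPIV- FAPs, with open symbols for DPPIV- and filled symbols for DPPIV+ FAPs, circles for mouse 1 and squares for mouse 2. Thbs4 and Tnxb lead, and Tnn lies far below the others and near the floor in DPPIV+ FAPs. Tnr is not drawn.

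Some reads of the members could belong to overlapping or similar genes, since no source used here states whether counting used strand. Exons of Thbs3 share 318 bases with Mtx1 on the opposite strand, which had 273 to 330 reads per library against at least 7413 for Thbs3. Other overlaps on the opposite strand concern Thbs1 (Gm29233, 208 bases), Tnc (8030451A03Rik, 176 bases), Tnr (Gm38039, 443 bases) and Tnxb (Cyp21a2-ps, 3 bases), whose partners are not listed among the counts. Tnxb also shares 1090 bases at 97.6% identity with its truncated copy Tnxa, not listed either, so reads of that stretch cannot be placed with certainty. It further matches 105 bases of Cyp21a1, which is listed, at 97.1% identity. Short stretches of Tnr match many other genes, listed ones among them, so its few reads cannot be placed with certainty either.

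The genes whose pattern over the 4 libraries was nearest to that of Tnn were Col9a2, Il31ra, Hhip, Masp1 and Susd5. Likeness was the Euclidean distance between log2 CPM centred on each gene's mean, and it ran from 0.237 for Col9a2 to 0.662 for Susd5. It mainly followed the decrease of Tnn, with which the group was selected, so it adds no evidence for that decrease. Like Tnn, all 5 genes passed the filter on low values only through their DPPIV- libraries. Col9a2 (a chain of the cartilage collagen IX) had 49 reads in mouse 1 and 52 in mouse 2 in DPPIV- FAPs, and 2 in each mouse in DPPIV+ FAPs. Il31ra, the receptor chain of interleukin 31, had 43 and 46 reads in DPPIV- and 2 in each DPPIV+ library. Col9a2 and Il31ra were thus under the floor of detection in DPPIV+ FAPs, and their distances rest in part on such reads. Hhip, a membrane-bound antagonist of hedgehog ligands, was the best counted of the 5 with 350 and 396 against 16 and 12 reads. Masp1, a complement protease, and Susd5 had 101 to 116 reads in DPPIV- and 4 to 7 in DPPIV+ FAPs.

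The receptors and partners of these proteins were read from 6 fixed lists of 54 genes, of which 44 passed the filter. The lists were drawn up with earlier results of these data known, so the counts of their genes called are a description. edgeR called 12 of the 44 higher and 20 lower in DPPIV+ FAPs, beside 15.9% and 17.2% of all genes, and DESeq2 called 12 and 16. The median log2 fold change was -0.017 for the thrombospondin receptors, 0.088 for the integrins, 0.40 for the tenascin ligands and receptors, -0.14 for the collagen fibril partners, -0.28 for the latent TGF-beta genes and -1.04 for the other matricellular genes, beside -0.0020 over all genes. Of the 22 partner genes named with a fold change, 11 were called in all 14 alternatives run, namely Itga2, Itga8, Itgb3, Fn1, Matn2, Ltbp1, Ltbp2, Ltbp4, Sparcl1, Smoc1 and Spock2. Fold changes below are fitted log2 values of DPPIV+ over DPPIV- FAPs with edgeR's adjusted p.

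Of 5 thrombospondin receptors, Cd47, the receptor of the thrombospondin C-terminal domain, was higher (0.47, adjusted p = 1.26e-11 by edgeR). Cd36, the receptor of the type I repeats and a fatty acid carrier, was lower by edgeR (-0.49, adjusted p = 1.16e-06) but not by DESeq2 (0.120). The calcium channel subunit Cacna2d1, a neuronal thrombospondin receptor, was lower by both tools (-0.51, adjusted p = 3.26e-12 by edgeR). The other 2 did not pass the test. The call of Cd36 also ended without the block on mouse and without either DPPIV+ library, and its sign turned (0.091) without DPPIV- FAPs of mouse 1. Cd36 is also a gene of macrophages and capillary endothelium. Several markers of these cells were lower in DPPIV+ FAPs and in mouse 2 by edgeR, as given above, while the endothelial gene Tek was higher in DPPIV+ FAPs. The part of these cells was not tested.

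Of 12 integrin subunits, 10 were tested. Of these, 4 were higher and 2 lower. The collagen receptor chain Itga2 (1.79, adjusted p = 1.66e-31) and the vitronectin receptor chain Itgb3 (0.77, 7.66e-30) led the higher ones by edgeR. Itga8, which pairs with beta 1 and binds tenascin and nephronectin, fell from 19.2 ± 1.67 to 4.08 ± 0.745 CPM (SD, n = 2; log2 -2.23, adjusted p = 1.89e-43 by edgeR). Itga6, a laminin receptor chain, was lower by edgeR (-0.88, 2.70e-05) but had an adjusted p of 0.0506 by DESeq2. Itga3 and Itgb6 were under the filter. Itgb6 had 1 read in mouse 1 and 2 in mouse 2 in DPPIV- FAPs, against 24 and 33 in DPPIV+ FAPs. When no filter was used, 5 integrin subunits were called higher.

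Of 9 tenascin ligands and receptors, 4 were tested, and 3 were higher. Fn1 (fibronectin, whose cell adhesion tenascin-C blocks) had the largest change, from 6383 ± 141 to 16017 ± 233 CPM (SD, n = 2; log2 1.33, adjusted p = 2.24e-51 by edgeR). Tlr4, a receptor of the fibrinogen-like globe of tenascin-C, was higher by 0.55 (adjusted p = 1.31e-14 by edgeR) and the proteoglycan Vcan by 0.24 (0.00225), a call that ended without the block and without any 1 library. The neural ligands and receptors Ncan, Bcan, Cntn1 and Ptprz1 and the cartilage proteoglycan Acan were under the filter. Ncan had 0 reads in all libraries. Cntn1 had 35 reads in mouse 1 and 22 in mouse 2 in DPPIV- FAPs, against 3 and 10 in DPPIV+ FAPs. When no filter was used, 1 gene of the list was called lower.

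Of 11 collagen fibril partners, 10 were tested. The procollagen proteinase Bmp1, which periostin binds, was higher (0.58, adjusted p = 2.60e-15 by edgeR), as was the fibril-associated Col12a1 (0.33, 5.97e-06). The call of Col12a1 ended without the block on mouse, and its sign turned without DPPIV+ FAPs of mouse 2 (-0.050) and without DPPIV- FAPs of mouse 1 (-0.0062). The adaptor Matn2 fell from 197 ± 20.5 to 58.9 ± 13.0 CPM (SD, n = 2; log2 -1.75, adjusted p = 2.65e-136 by edgeR). In all, 3 of the list were higher and 4 lower, among them Col1a1, a chain of type I collagen (-0.40, adjusted p = 2.39e-05 by edgeR). Without the block on mouse, 1 of the list was called higher and 2 lower. Matn3 was under the filter.

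Latent TGF-beta genes were lower for 6 of 8 and higher for 1 by edgeR, beside 17.2% and 15.9% of all genes. The lower calls became 5 with DESeq2, 3 without the block on mouse and 2 against a 1.5-fold change. Ltbp2, a microfibril protein that does not bind latent TGF-beta, fell the most, from 64.5 ± 37.3 to 11.3 ± 7.83 CPM (SD, n = 2; log2 -2.54, adjusted p = 3.77e-154 by edgeR). Ltbp4 (-0.87, 2.58e-30) and Tgfb1 (-0.65, 6.45e-15) were lower by edgeR. Ltbp1, which anchors latent TGF-beta in the matrix, was higher, from 289 ± 23.4 to 577 ± 32.4 CPM (SD, n = 2; log2 1.00, adjusted p = 1.13e-45 by edgeR).

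Of 9 other matricellular genes, 7 were tested, 6 were lower and 0 higher. Sparcl1, an anti-adhesive relative of Sparc, fell from 1534 ± 15.3 to 329 ± 33.2 CPM (SD, n = 2; log2 -2.22, adjusted p = 9.30e-189 by edgeR). Smoc1 (-1.89, 6.58e-16) and the proteoglycan Spock2 (-1.46, 7.45e-98) were lower by edgeR, as was osteopontin, Spp1 (-1.04, 8.16e-49), which neither DESeq2 (0.284) nor robust moderation called. Spp1 is also a macrophage gene, and the part of those cells was not tested. Spock1 had 0 reads in all libraries, and Spock3 was under the filter. Spock3 went the other way, with 0 reads in mouse 1 and 1 in mouse 2 in DPPIV- FAPs against 23 and 19 in DPPIV+ FAPs. When no filter was used, 1 gene of the list was called higher.

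**Figure D5:**
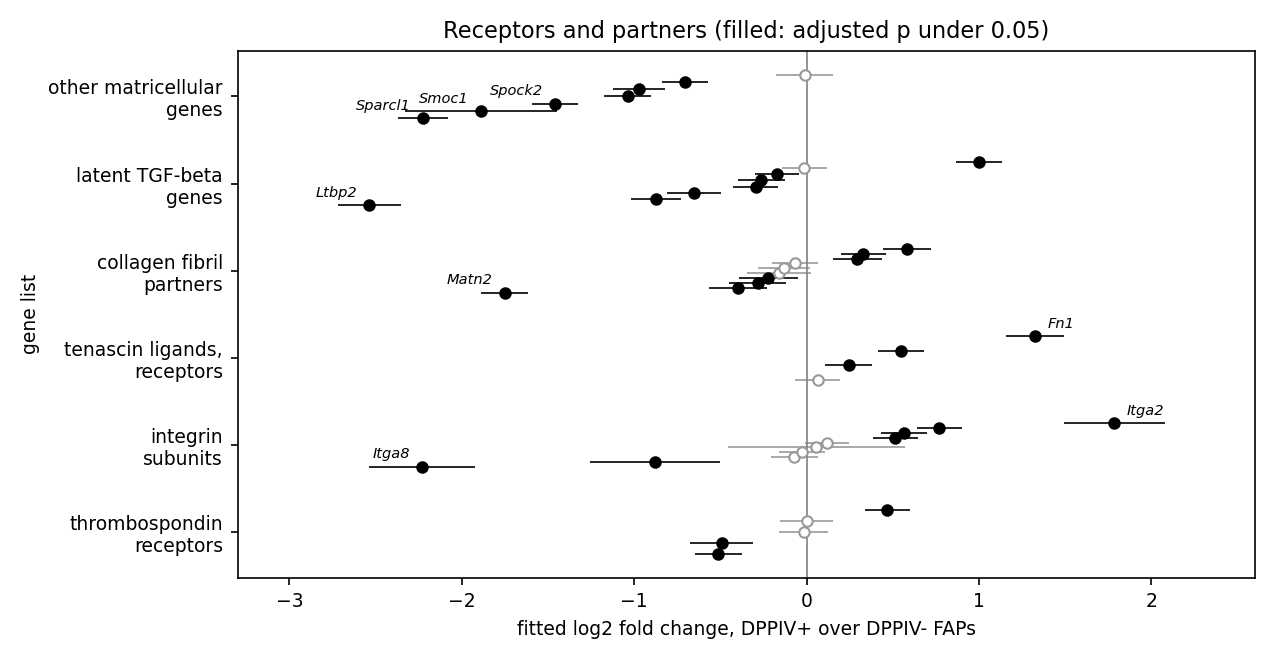
Fitted log2 fold change of DPPIV+ over DPPIV- FAPs with 95% intervals for the 44 tested genes of the 6 lists, filled where the adjusted p of edgeR was under 0.05. The genes farthest from 0 are named. All called genes of the other matricellular list lie below 0, and Itga2 and Fn1 lie farthest above 0.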

How the data were processed

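The deposited values are raw counts per gene symbol, for which the authors used bcl2fastq 2.20, STAR (mm10) and RnaReadCounter on paired-end reads. The submitters' processing notes also list Bowtie. The labels name the NEBNext Ultra II Stranded mRNA kit and the study's methods the TruSeq Stranded mRNA kit. The annotation release and strand setting are not given in the sources used here.

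Counts were analysed with edgeR 4.0.16 and limma 3.58.1 in R 4.3.3 (TMM, at least 2 CPM in at least 2 libraries, quasi-likelihood F test, two-sided, Benjamini-Hochberg over 11588 genes, threshold 0.05), with mouse as a block, as in the study's methods. The labels give both cell types of a mouse the same number, and the differences between the mice in the 2 cell types correlated at 0.415 across genes. With 1 residual degree of freedom and an infinite prior, each gene's spread was set to the trend with abundance. DESeq2 1.42.0 was an alternative. The tests were first checked on simulated counts drawn with the spread of that trend. The check could not show how the tests fare for genes whose spread departs from the trend. Log2 ratios per mouse used a prior count of 0.125.

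The members, the receptor, partner and marker lists and the tests were chosen with earlier results of these data known. Named partners were those past the threshold with the largest change, at most 4 per list, and those under 2 CPM in all libraries. Positions and lengths are from GENCODE M21 (GRCm38), for 23336 of 24421 symbols, and BLAST 2.17.0 was used to find similar transcripts (97% identity over 50 bases). Protein identity was not analysed here. Intervals and floors cover counting error or the fitted spread only.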

Additional observations from a re-analysis of the deposited data

How the results depend on the processing

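The members called in DPPIV+ FAPs were 2 higher and 6 lower, which became 2 and 3 with DESeq2 and 0 and 2 in the test against a 1.5-fold change. Without the replicate block on mouse they were 2 and 2, and the calls of Thbs1, Thbs4, Comp and Tnc were lost. Leaving out 1 library at a time in the unblocked fit gave 1 to 2 higher and 1 to 5 lower, and the fewest lower calls came without DPPIV+ FAPs of mouse 1, as they did for all genes and partners. There the lone library of a cell type is assumed to vary like the others. In those fits Thbs2 lost its call without DPPIV- FAPs of mouse 1 (log2 0.32) and without either DPPIV+ library (0.48 and 0.42). Tnc lost its call without either DPPIV+ library (-0.24 and -1.17) and without DPPIV- FAPs of mouse 2 (-0.0010). Postn lost its call without either DPPIV+ library (-0.72 and -1.03). The partner genes called (12 higher and 20 lower) became 4 and 9 against a 1.5-fold change, and with 1 library left out 7 to 9 and 10 to 15. Over all genes, 1837 higher and 1989 lower became 923 and 995 with DESeq2, 436 and 656 against a 1.5-fold change and 1001 and 1119 without the block, and with 1 library left out 632, 712, 914 and 1049 higher and 732, 841, 1090 and 1121 lower. The 5 members higher in mouse 2 became 1 with DESeq2, 1 against a 1.5-fold change and 0 without a cell type term. The causes were not tested. Cd36 changed sign without DPPIV- FAPs of mouse 1 (0.091), and Col12a1 without DPPIV- FAPs of mouse 1 (-0.0062) and without DPPIV+ FAPs of mouse 2 (-0.050). Thbs3 changed sign with upper-quartile normalization (-0.014), without DPPIV+ FAPs of mouse 1 (-0.0088) and without DPPIV- FAPs of mouse 2 (-0.016). Thbs4 changed sign without DPPIV+ FAPs of mouse 1 (0.26), without DPPIV- FAPs of mouse 2 (0.074) and without mouse 1 (0.081, against -0.47 without mouse 2). Tnn stayed between -4.64 and -4.35 and was called in every setting with a test of it, but a filter of 2 CPM in at least 3 libraries removed it. Because the group was selected with the decrease of Tnn known, these calls add no evidence for it. RLE normalization, the likelihood ratio test, robust moderation, no filter and an adjusted p under 0.01 left the counts of members, partners and all genes within 1.5 times, although the likelihood ratio test lost Thbs1, RLE lost Thbs4 and the stricter threshold lost both. At an adjusted p under 0.01 the macrophage genes called lower went from 4 to 2 and the endothelial ones from 3 to 1. With a mouse left out only log2 values could be computed. A protein alignment was not run. Tnn in DPPIV+ FAPs (4 and 5 reads) and Tnr are limited by depth.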

Other observations

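Among the receptors and partners, genes also differed between the mice. Ltbp2 was higher in mouse 2 by 1.33 on the log2 scale (adjusted p = 2.19e-45 by edgeR and 8.69e-13 by DESeq2) and Col12a1 by 0.71 (2.51e-23 and 1.09e-09). The lysyl oxidase gene Lox, which did not pass the test between the cell types, was higher in mouse 2 by 0.36 (5.83e-06 by edgeR and 0.0117 by DESeq2). Cd36 was lower in mouse 2 (-0.73, adjusted p = 1.55e-12 by edgeR and 0.0488 by DESeq2). These 4 were the partner genes that both tools called between the mice, and they were chosen for mention after their values were seen. As with the members, this compares 1 animal with 1 animal.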
